A study of Rattus norvegicus with 18 samples.

Results

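Matrix metalloproteinases (Mmp) and the tissue inhibitors of metalloproteinases (Timp) were followed in rat liver through 9 transcripts, taken by symbol from the 32623 genes quantified in each liver: Mmp2, Mmp9, Mmp12, Mmp13, Mmp14, Mmp19, Timp1, Timp2 and Timp3. Each symbol matched a single gene. Of the 9 genes, 7 passed the filter on low counts and were tested among 12904 genes, and Mmp9 and Mmp13 did not pass it. A gene with few counts in control livers passes this filter only if another group carries enough of them, which was the case for Mmp12.

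Metalloproteinases are zinc-dependent endopeptidases that cut collagens, gelatin, elastin and other matrix proteins. They are made as inactive proenzymes, and Timp proteins bind the active site and block it. In fibrotic liver, scar forms where deposition of collagen by stellate cells exceeds its removal, and the balance between proteases and Timp proteins is a classical theme of that field. In rodents Mmp13 is the principal interstitial collagenase. Mmp2 and Mmp9 are gelatinases, Mmp14 is a membrane-anchored collagenase that activates pro-Mmp2 in a complex with Timp2, and Mmp12 is the macrophage elastase.

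The 18 livers came from male Wistar rats, with 6 rats per group and 1 library per rat. Control rats received standard chow and normal water for 12 weeks. NASH (non-alcoholic steatohepatitis) rats inhaled CCl4, a hepatotoxin, with phenobarbital in the drinking water for 6 weeks and then were fed a diet rich in fat and cholesterol (HFCD) for 4 weeks, 10 weeks in all. NASH-CH rats, the model of NASH with cirrhosis, inhaled CCl4 with phenobarbital for 24 weeks and ate the HFCD during the last 16. The labels describe the models only as CCl4 together with the diet, for 10 or 24 weeks. By the methods, NASH rats thus had no CCl4 in their last 4 weeks, and no control group was kept for 24 weeks, so that age and treatment cannot be told apart in NASH-CH. Rat ages are not given in the sources used here.

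Libraries held 19498534 to 29491947 expected counts in control and NASH rats and 44680344 to 60117822 in NASH-CH rats, so that depth and condition cannot be told apart in NASH-CH. With NASH-CH libraries thinned to the mean control total, the genes called against control still numbered 4. Levels are given in CPM, counts scaled to a common library size with TMM factors, without correction for gene length, and are therefore compared between rats and never between genes. The hepatocyte gene Alb stood at 41374 to 131558 CPM in all livers. Group levels are a mean ± SD over n = 6 rats. NASH-CH rat 5 had the most counts and the highest TMM factor, 1.28, and stood at the edge of its group for most of the 9 genes. Values without it are given where a call among the 9 rested on it. Whether calls of genes outside the 9 rested on this rat was not examined. In whole liver, fewer cells of a type and less RNA per cell cannot be told apart.

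Promoter sequence was available for Mmp12, Mmp13, Timp1, Timp2 and Timp3 among the 9 genes. The 250 bases before the annotated start are shown for 4 of them (RefSeq, GRCr8), because Mmp12 changed most, Mmp13 stayed near 0 counts next to it on the chromosome, Timp2 was higher in NASH-CH and Timp1 passed no test. Capitals mark matches, on either strand, to the AP-1 motif TGANTCA or to the TATA box TATAAA. The windows are chr8:12866402-12866651 (plus strand), chr8:12782579-12782828 (plus strand), chrX:3771123-3771372 (minus strand) and chr10:104089215-104089464 (minus strand).
Mmp12: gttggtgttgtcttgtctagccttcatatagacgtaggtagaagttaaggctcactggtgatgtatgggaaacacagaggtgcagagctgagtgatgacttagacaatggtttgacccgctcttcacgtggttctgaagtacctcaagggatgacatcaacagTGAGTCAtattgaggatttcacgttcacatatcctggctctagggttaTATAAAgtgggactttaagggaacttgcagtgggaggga
Mmp13: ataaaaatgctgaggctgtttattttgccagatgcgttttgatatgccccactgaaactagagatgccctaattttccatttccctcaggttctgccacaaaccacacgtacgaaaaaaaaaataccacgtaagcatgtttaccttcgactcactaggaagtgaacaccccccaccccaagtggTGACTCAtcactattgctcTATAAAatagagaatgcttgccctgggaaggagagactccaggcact
Timp1: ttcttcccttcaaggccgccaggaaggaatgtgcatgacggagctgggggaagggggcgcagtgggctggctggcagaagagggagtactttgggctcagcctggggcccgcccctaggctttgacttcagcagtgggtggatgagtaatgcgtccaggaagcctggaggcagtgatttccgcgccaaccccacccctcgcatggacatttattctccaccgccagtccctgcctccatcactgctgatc
Timp2: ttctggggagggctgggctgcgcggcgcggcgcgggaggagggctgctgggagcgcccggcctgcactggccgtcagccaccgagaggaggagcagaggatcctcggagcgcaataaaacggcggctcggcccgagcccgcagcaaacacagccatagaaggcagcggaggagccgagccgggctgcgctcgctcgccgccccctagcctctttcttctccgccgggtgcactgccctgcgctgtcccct

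AP-1 is a dimer of Fos and Jun proteins that binds the first of these motifs. The Mmp12 window held the match TGAGTCA starting 87 bases before the start site and TATAAA 39 bases before it. The Mmp13 window held TGACTCA at 66 bases and TATAAA at 47. No exact match to either motif lay in the windows of Timp1, Timp2 and Timp3, which were richer in G and C, with 61.2, 72 and 69.6% against 45.6% in Mmp12 and 44.4% in Mmp13. Sequences 1 base off a motif were not counted, among them TGAGTAA in the Timp1 window. The lack of an exact match therefore does not show that a window lacks an AP-1 site. Among 33465 RefSeq promoters cut to the same 250 bases, 6.34% held TGANTCA and 12.9% held TATAAA. The GC box GGGCGG, found in 30.5% of all windows on either strand, had 1 match in Timp1, 1 in Timp2 and 3 in Timp3 and none in Mmp12 and Mmp13.

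The question of the first comparison was how the 9 transcripts differed between NASH and control livers. Mmp12, the macrophage elastase, rose from nearly nothing, and no other gene of the 9 passed the test. Relative to controls, 1 of the 7 tested genes was higher and 0 were lower, where 3.12% of all tested genes were called, 1.58% higher and 1.54% lower. No gene of the 7 was lower with edgeR, with DESeq2 or at an unadjusted limma-voom p under 0.05 in any of the 3 comparisons (0 in each). The 7 genes had a median log2 fold change of 0.23, beside 0.0072 over all tested genes. Calls are limma-voom with Benjamini-Hochberg adjustment over all 12904 genes at a threshold of 0.05, from 1 fit of the 18 livers.

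Mmp12 (ENSRNOG00000030187) had 1 to 5 counts in each control liver, 37 to 130 in each NASH liver and 202 to 1454 in each NASH-CH liver. Its level ranged from 0.0386 to 0.252 CPM in control rats (median 0.189), from 1.59 to 5.45 in NASH rats (median 2.54) and from 4.41 to 18.9 in NASH-CH rats (median 5.89). Every NASH and every NASH-CH rat lay above every control rat, and 4 of 6 NASH-CH rats lay above every NASH rat. The other 2, NASH-CH rats 1 and 4, overlapped with NASH rat 4. Groups without overlap between NASH and control were seen in 3.16% of all tested genes.

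In NASH the mean of Mmp12 was 2.94 ± 1.44 CPM against 0.174 ± 0.0816 in controls (SD, n = 6), a ratio of 16.9 and 4.02 on the log2 scale (SE 0.89, limma-voom adjusted p = 0.0221). In NASH-CH it was 8.13 ± 5.46 CPM, a ratio to control of 46.8 and 5.42 on the log2 scale (SE 0.86, limma-voom adjusted p = 0.000337). Without NASH-CH rat 5, which held 18.9 CPM, the NASH-CH log2 fold change was 5.12. Both increases are imprecise in size, and the 6 control livers held 22 counts in all. The NASH call was lost when control rat 1, 3, 4 or 5 was left out, with limma-voom adjusted p of 0.0586, 0.0582, 0.0573 and 0.0534 and log2 fold changes of 3.97 to 4.15.

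**Figure D1:**
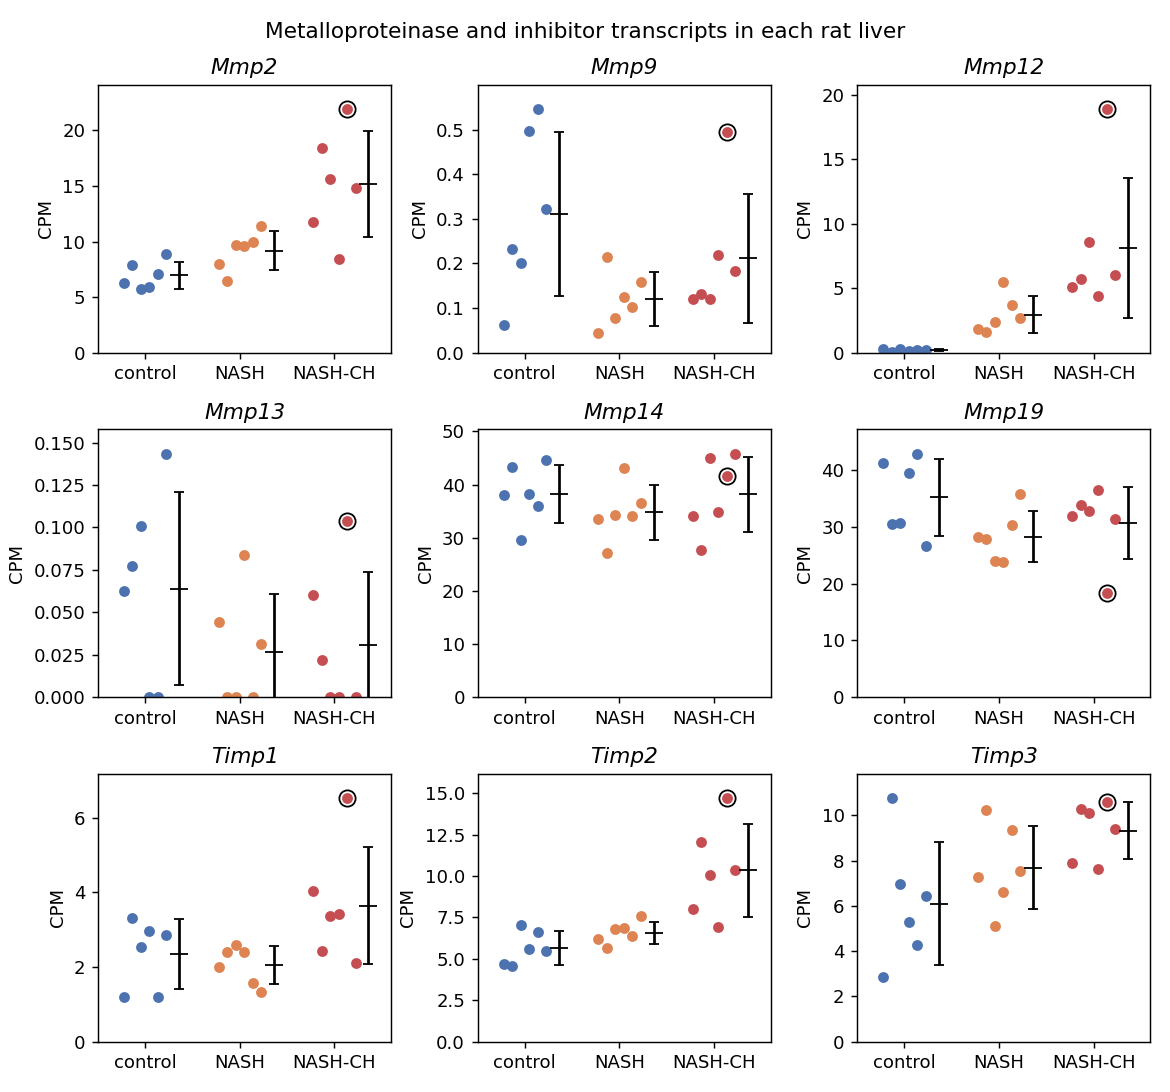
Level of each of the 9 genes in CPM (vertical axes, linear, from 0) in control, NASH and NASH-CH rats. Each point is a rat, NASH-CH rat 5 is ringed, and the black dash and bar at the right of each group are the mean and SD of 6 rats, cut off at 0. Mmp12 stood at or below 0.252 CPM in all control rats and at or above 1.59 in all others, while Mmp14 overlapped in all groups.

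The other 6 tested genes were not called in NASH. Mmp2 had a log2 fold change of 0.39 (95% interval -0.069 to 0.84), Timp2 of 0.23 (-0.15 to 0.62) and Timp3 of 0.37 (-0.12 to 0.86). Timp1 had one of -0.22 (-0.98 to 0.55), Mmp14 of -0.14 (-0.41 to 0.14) and Mmp19 of -0.31 (-0.63 to 0.019). Their limma-voom adjusted p ran from 0.259 for Mmp19 to 0.776 for Timp1. These intervals leave room for an increase of Timp1 of up to 0.55 on the log2 scale. Scaling by library size alone shifted the median of all genes to 0.23, and Mmp14 and Timp1 then had log2 fold changes of 0.086 and 0.046.

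The second comparison asked the same of NASH-CH. A gelatinase, the macrophage elastase and a pair of inhibitors were higher than in controls: Mmp12, Mmp2, Timp2 and Timp3. That made 4 of 7 tested genes higher and 0 lower, where 17.0% of all tested genes were called, 8.38% higher and 8.60% lower. Mmp12 alone of the 7 had groups without overlap, which 7.11% of all tested genes had. Their median log2 fold change was 0.67, beside 0.013 over all tested genes. Mmp14, Mmp19 and Timp1 did not pass.

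Mmp2 (ENSRNOG00000016695), gelatinase A, which stellate cells secrete, ranged from 5.70 to 8.89 CPM in control rats (median 6.69), from 6.43 to 11.4 in NASH rats (median 9.64) and from 8.45 to 21.9 in NASH-CH rats (median 15.2). All NASH-CH rats but rat 4 lay above every control rat and above every NASH rat. Its mean rose from 6.96 ± 1.24 to 15.2 ± 4.74 CPM (SD, n = 6), with a fold change on the log2 scale of 1.06 (SE 0.21, limma-voom adjusted p = 0.00214), and without NASH-CH rat 5 of 0.94. NASH rats stood between both groups, with 4 of 6 above every control rat.

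Timp2 (ENSRNOG00000003148) blocks metalloproteinases and, bound to Mmp14, is the receptor for pro-Mmp2. It ranged from 4.55 to 7.07 CPM in control rats (median 5.54), from 5.66 to 7.58 in NASH rats (median 6.58) and from 6.94 to 14.7 in NASH-CH rats (median 10.2). As for Mmp2, NASH-CH rat 4 was the lowest of its group and the only one not above every control rat. The mean rose from 5.67 ± 1.02 to 10.4 ± 2.80 CPM (SD, n = 6), with a fold change on the log2 scale of 0.85 (SE 0.17, limma-voom adjusted p = 0.00246). Without NASH-CH rat 5 it was 0.73.

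Timp3 (ENSRNOG00000004303), the inhibitor that stays bound to the matrix and also blocks adamalysins, showed a weaker difference. Control rats spanned 2.87 to 10.8 CPM (median 5.85), NASH rats 5.13 to 10.2 (median 7.41) and NASH-CH rats 7.64 to 10.6 (median 9.75). The groups overlapped fully at the upper end, since control rat 2 exceeded every NASH-CH rat, and NASH-CH rats formed the tightest group. The log2 fold change in NASH-CH was 0.67 (SE 0.22, limma-voom adjusted p = 0.0438). The call was lost in 6 of 13 alternative settings, among them edgeR (adjusted p = 0.0726) and DESeq2 (adjusted p = 0.0514). It was also lost in 12 of 18 fits that each left out 1 rat.

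Those 12 fits left out control rats 1, 3, 4, 5 and 6, NASH rats 1, 4 and 6, and NASH-CH rats 2, 3, 5 and 6, with limma-voom adjusted p from 0.0512 to 0.110 and a log2 fold change down to 0.50 without control rat 1. Without NASH-CH rat 5 the log2 fold change was 0.63 (limma-voom adjusted p = 0.0719).

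Timp1 (ENSRNOG00000010208), the inducible inhibitor that is widely used as a marker of fibrosis, was not called in any comparison. It ranged from 1.18 to 3.32 CPM in control rats (median 2.70), from 1.33 to 2.58 in NASH rats (median 2.20) and from 2.10 to 6.52 in NASH-CH rats (median 3.38). In NASH-CH, 4 of 6 rats lay above every control rat and rats 2 and 6 lay within the control range. Its mean was 3.64 ± 1.58 CPM in NASH-CH against 2.34 ± 0.930 in control rats (SD, n = 6), with a fold change on the log2 scale of 0.60 (95% interval -0.051 to 1.26, limma-voom adjusted p = 0.194). Without NASH-CH rat 5, at 6.52 CPM, the log2 fold change was 0.39 (adjusted p = 0.337). The interval holds both no change and an increase as large as that of Mmp2 or Timp2.

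Mmp14 (ENSRNOG00000010947), the membrane-type protease that activates pro-Mmp2, ranged from 29.5 to 44.6 CPM in control rats (median 38.1), from 27.1 to 43.0 in NASH rats (median 34.2) and from 27.6 to 45.8 in NASH-CH rats (median 38.2). The 3 groups covered nearly the same range. The log2 fold change in NASH-CH was -0.019 (95% interval -0.30 to 0.27, limma-voom adjusted p = 0.936), an interval that leaves out changes of the size seen for Mmp2. It was 0.24 with library size alone, when the median of all genes stood at 0.27.

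Mmp19 (ENSRNOG00000006778), a secreted protease of basement membrane proteins, ranged from 26.6 to 42.9 CPM in control rats (median 35.1), from 23.7 to 35.8 in NASH rats (median 28.0) and from 18.4 to 36.5 in NASH-CH rats (median 32.3). NASH-CH rat 5 was the low end at 18.4 CPM, and the other 5 lay between 31.4 and 36.5. The log2 fold change in NASH-CH was -0.19 (95% interval -0.53 to 0.14, limma-voom adjusted p = 0.423), and without that rat -0.062. With library size alone it was 0.055.

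**Figure D2:**
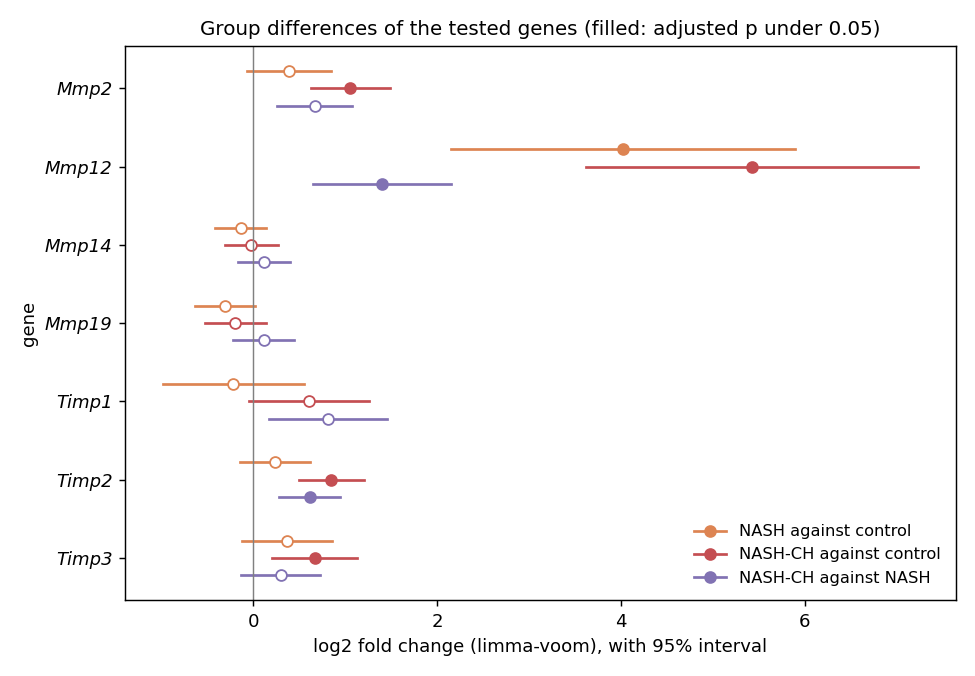
Log2 fold change (horizontal axis) of the 7 tested genes (vertical axis) in the 3 comparisons of groups, with 95% intervals from limma-voom. Filled points have an adjusted p under 0.05, which was reached by Mmp12 in all 3 comparisons, by Timp2 in both that involve NASH-CH and by Mmp2 and Timp3 against control.

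Mmp9 and Mmp13 were too scarce to be tested. Mmp9 (ENSRNOG00000017539), the gelatinase of neutrophils and macrophages, had 1 to 12 counts in each control liver, 1 to 5 in each NASH liver and 6 to 38 in each NASH-CH liver. In CPM it ranged from 0.0623 to 0.545 in control rats (median 0.277), from 0.0446 to 0.214 in NASH rats (median 0.114) and from 0.120 to 0.493 in NASH-CH rats (median 0.157). The groups overlapped, and 38 of the 77 NASH-CH counts came from rat 5. In a fit of 20887 genes without the filter, its log2 fold change was -1.18 in NASH (SE 0.48, limma-voom adjusted p = 0.231) and -0.53 in NASH-CH (SE 0.44, adjusted p = 0.392).

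Mmp13 (ENSRNOG00000008478), the rodent interstitial collagenase, summed to 9 counts over the 6 control livers, 4 over the NASH livers and 12 over the NASH-CH livers, of which rat 5 gave 8. Relative to library size it ranged from 0 to 0.143 CPM in control rats (median 0.0697), from 0 to 0.0839 in NASH rats (median 0.0158) and from 0 to 0.104 in NASH-CH rats (median 0.0109), with rats at 0 in every group. The NASH-CH libraries were deeper, so the larger sum there went with a lower mean, 0.0310 ± 0.0427 CPM against 0.0640 ± 0.0566 in control rats (SD, n = 6). In the fit without the filter its log2 fold change was -0.87 in NASH (SE 0.70, limma-voom adjusted p = 0.585) and -1.47 in NASH-CH (SE 0.71, adjusted p = 0.137), and neither passed. Neutrophil markers, which go with one source of Mmp9, were likewise scarce, with 1 of 7 passing the filter and Ltf at 0 counts in all livers. Their summed level was 0.394 to 2.83 CPM in control, 0.461 to 1.30 in NASH and 0.636 to 5.86 in NASH-CH rats, highest in rat 5. S100a9, the one with most counts, stood at 0.0717 to 1.14 CPM in control and 0.276 to 2.53 in NASH-CH rats, and the part of these markers in the Mmp9 level was not tested.

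The third comparison set NASH-CH directly against NASH. Mmp12 and Timp2 were higher in NASH-CH, 2 of 7 tested genes, with 0 lower, where 4.20% of all tested genes were called, 1.81% higher and 2.39% lower. Mmp12 had a log2 fold change of 1.40 (SE 0.36, limma-voom adjusted p = 0.0321) and Timp2 of 0.61 (SE 0.16, adjusted p = 0.0353). For Timp2, 5 of 6 NASH-CH rats lay above every NASH rat. Mmp2, at 0.67 (SE 0.19, limma-voom adjusted p = 0.0596), and Timp1, at 0.82 (SE 0.31, adjusted p = 0.157), did not pass. Mmp14, Mmp19 and Timp3 had log2 fold changes of 0.12, 0.11 and 0.30.

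These calls lay near the threshold. Leaving out 1 rat ended the call of Mmp12 in 6 of 18 fits, those without NASH rats 1, 2, 3, 5 or 6 or NASH-CH rat 3 (limma-voom adjusted p up to 0.0779), and that of Timp2 in 9, those without NASH rats 1 to 5 or NASH-CH rats 2, 3, 5 or 6 (adjusted p up to 0.0817). Without NASH-CH rat 5, Timp2 had a log2 fold change of 0.49 (limma-voom adjusted p = 0.0544). Mmp2 was called with edgeR (adjusted p = 0.0314), with DESeq2 (adjusted p = 0.00788) and without NASH-CH rat 4 (adjusted p = 0.00567).

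**Figure D3:**
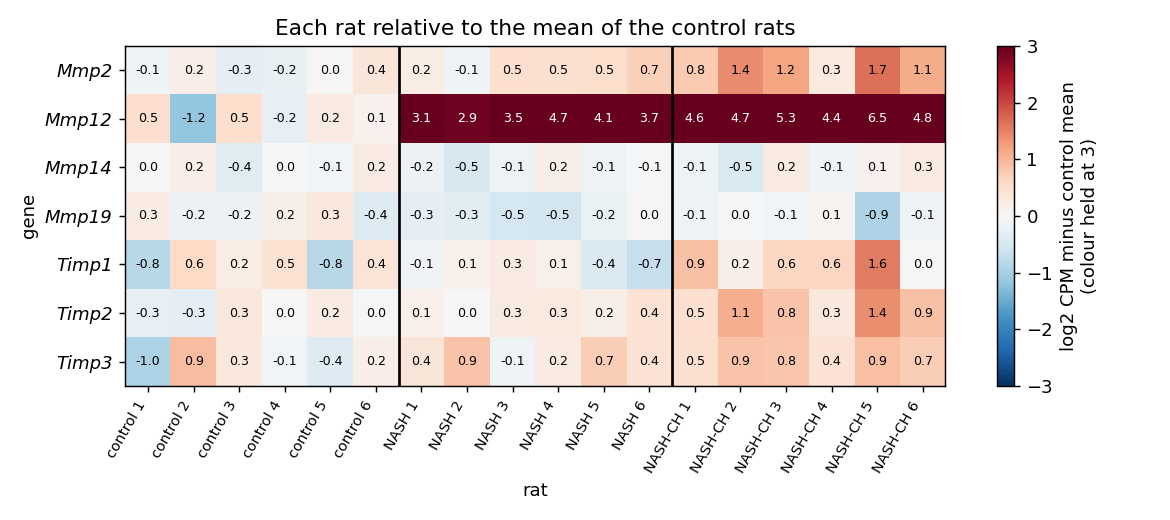
Log2 CPM of the 7 tested genes (rows) in each rat (columns) minus the mean of the 6 control rats, with vertical lines between the control, NASH and NASH-CH groups. Mmp12 is far above the control mean in every NASH and NASH-CH rat, and NASH-CH rat 5 holds the highest value of Mmp2, Mmp12, Timp1 and Timp2 and the lowest of Mmp19.

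Ratios of transcripts within a rat are not touched by library scaling. They are given as log2 ratios relative to the control mean, with 0.5 added to each count, and as a description without a test. The ratio of Mmp2 to Timp2 changed little, at 0.17 ± 0.17 for NASH and 0.23 ± 0.13 for NASH-CH (SD, n = 6) against an SD of 0.42 in control rats, and no rat lay outside the control range. The ratio of Mmp14 to Timp2 was -0.36 ± 0.15 in NASH and -0.85 ± 0.45 in NASH-CH, where 2 of 6 rats lay below every control rat.

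The ratio of Mmp2 to Timp1 was 0.51 ± 0.60 in NASH and 0.43 ± 0.67 in NASH-CH, with 2 of 6 rats of each model above the control range. That of Mmp12 to Timp1 was 4.07 ± 0.80 in NASH and 4.70 ± 0.56 in NASH-CH, above every control rat in 6 of 6 rats of each model. With Mmp12 at 1 to 5 counts in each control liver and Timp1 not called, this repeats the Mmp12 increase and is no separate result.

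Among the 7 genes, Mmp2 and Timp2 varied most alike. Pearson's r of their log2 CPM over the 18 rats was 0.88, and it was 0.66 for deviations from the group means and 0.83 without NASH-CH rat 5. Timp1 and Mmp19 ran in opposite directions, with r = -0.58 over all rats, -0.76 for the deviations and -0.37 without that rat. These values describe 18 libraries that share their groups, and no test was made.

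The genes whose log2 CPM followed each member best over the 18 rats are given by name with the same measure. For Mmp2 they were the collagen VI chains Col6a2 (r = 0.95) and Col6a1 (r = 0.95) and the adhesion molecule Ncam1 (r = 0.93). For Mmp12 they were Unc5c (r = 0.94), Pla2g7 (r = 0.94), which encodes the lipoprotein-associated phospholipase of macrophages, and the pericyte gene Rgs5 (r = 0.93). The r of deviations from group means was 0.86, 0.86 and 0.79 for the genes of Mmp2 and lower, 0.69, 0.66 and 0.32, for those of Mmp12.

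Timp2 went with the secreted protease gene Htra3, Fam198b and Itgbl1 (r = 0.95, 0.95 and 0.93), and Timp3 with Slc20a1, Ubl3 and Dusp8 (r = 0.90, 0.88 and 0.87). Timp1 went with Gfpt2, Aldoa and Sowahc (r = 0.88, 0.85 and 0.84), and Mmp19 with Dennd6b, Cideb and Igfals (r = 0.94, 0.93 and 0.90), of which Cideb and Igfals are hepatocyte genes. The values of Mmp14 were the lowest, with Mboat7l1, Tmem81 and Yeats2 at r = 0.75, 0.75 and 0.73.

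Mmp12 and Mmp13 lie in a run of 10 metalloproteinase genes on rat chromosome 8, in the order Mmp13, Mmp12, Mmp1b, Mmp3, Mmp1, Mmp10, Mmp8, Mmp27, Mmp20 and Mmp7 (RefSeq, GRCr8), with 0 other protein-coding genes between them. Only Mmp12 of the 10 passed the filter. Its direct neighbours stayed near 0, with 0, 0 and 1 counts in all for Mmp1b and 9, 4 and 12 for Mmp13 in control, NASH and NASH-CH livers. Mmp1, another collagenase, had 0 counts in all 18 livers, and Mmp3 and Mmp10, the stromelysins, had at most 8 and 4 counts in any liver.

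Mmp7, Mmp8 and Mmp20 were singled out after their values were seen, and none was tested. Mmp7 (matrilysin) had 0 counts in the 6 control livers, 7 over the NASH livers and 62 over the NASH-CH livers, where each rat had at least 2. Set against a floor of 3 counts over the control group, its NASH-CH level was at least 8.36-fold higher, and at least 4.92-fold without NASH-CH rat 5. Mmp8, the neutrophil collagenase, had 22, 20 and 150 counts in the same order, or 0.182 ± 0.159, 0.125 ± 0.0647 and 0.436 ± 0.248 CPM (SD, n = 6). Of 74 Mmp20 counts in NASH-CH livers, 65 came from rat 5. Such floors and counts cover counting error only.

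Of the other members of both families, 16 of 18 symbols listed were in the files and 5 passed the filter. In NASH-CH against control 2 were higher and 1 lower, where 8.38% of all tested genes were called higher and 8.60% lower. The 5 had a median log2 fold change of -0.051, beside 0.013 over all tested genes. In NASH 0 passed in limma-voom, where 2 had an unadjusted p under 0.05 and edgeR and DESeq2 each called 1. Mmp24, a membrane-type protease, rose from 2.89 ± 0.5004 to 4.99 ± 0.701 CPM (SD, n = 6), with a fold change on the log2 scale of 0.81 (SE 0.21, limma-voom adjusted p = 0.0137), and Mmp23 from 0.571 ± 0.175 to 1.37 ± 0.546 CPM, which is 1.25 on the log2 scale (SE 0.32, adjusted p = 0.0140). For both, every NASH-CH rat lay above every control rat. Mmp17, which is tethered to the membrane by a lipid anchor, fell from 1.47 ± 0.416 to 0.915 ± 0.155 CPM, with a log2 fold change of -0.67 (SE 0.18, limma-voom adjusted p = 0.0184), and 4 of 6 NASH-CH rats lay below every control rat. Mmp15 and Mmp16 did not pass, and Timp4 had at most 7 counts in any liver.

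Other proteases and inhibitors of the matrix were read from lists chosen for this purpose. Of 16 tested adamalysins (Adam and Adamts genes), 2 were higher in NASH-CH than in control and 0 lower, few genes to set beside the 8.38% of all tested genes called higher. Their median log2 fold change was 0.16, beside 0.013 over all tested genes. Adamts5, an aggrecanase that Timp3 inhibits, rose by a log2 fold change of 2.14 (SE 0.40, limma-voom adjusted p = 0.00137), and Adamts2, the procollagen N-proteinase, by 1.08 (SE 0.29, adjusted p = 0.0163). Adam12 was lower in NASH-CH than in NASH, at 0.458 against 1.02 CPM, with no overlap of the rats (log2 fold change -1.16, SE 0.26, limma-voom adjusted p = 0.0144).

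The plasmin system activates several pro-metalloproteinases. Serpine2, an inhibitor of its proteases, rose from 10.97 ± 1.42 CPM in control to 16.2 ± 2.01 in NASH-CH rats (SD, n = 6), 0.55 on the log2 scale (SE 0.12, limma-voom adjusted p = 0.00359), with 5 of 6 rats above every control rat. It was also higher than in NASH, by 0.48 (SE 0.11, limma-voom adjusted p = 0.0192). The activators Plau and Plat had log2 fold changes of 0.26 and 0.69 in NASH-CH and plasminogen (Plg) of 0.082, and none of these passed.

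Of 7 other inhibitors, activators and clearance receptors, 1 was called in each model against control. Of all tested genes, 3.12% were called in NASH and 17.0% in NASH-CH, where 1 of 7 is no larger a share. The median log2 fold change in NASH-CH was 0.24. A2m, the broad protease trap alpha-2-macroglobulin, rose from 19.3 ± 10.0 CPM in control to 122 ± 118 in NASH and 157 ± 83.1 CPM in NASH-CH (SD, n = 6). Its log2 fold changes were 2.25 (SE 0.59, limma-voom adjusted p = 0.0439) and 3.09 (SE 0.64, adjusted p = 0.00320), with 4 of 6 NASH rats and 6 of 6 NASH-CH rats above every control rat. Reck, a membrane-anchored inhibitor of metalloproteinases, had log2 fold changes of 0.21 and 0.15 and did not pass. Of 6 tested genes of collagen breakdown outside the family, the collagen uptake receptor Mrc2 was higher in NASH-CH (1.94, SE 0.54, limma-voom adjusted p = 0.0204) and the cathepsin Ctss lower (-0.53, SE 0.16, adjusted p = 0.0321). These were the only calls of that list in NASH-CH against control, where 17.0% of all tested genes were called.

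The matrix proteins that these enzymes cut were higher in NASH-CH than in control in 7 of 18 tested genes and lower in 0. Of all tested genes, 8.38% were called higher and 8.60% lower. The list had a median log2 fold change of 0.53, beside 0.013 over all tested genes. Versican (Vcan) rose by 1.80 (SE 0.31, limma-voom adjusted p = 0.00072), biglycan (Bgn) by 1.22 (SE 0.22, adjusted p = 0.00123), Col6a2 by 1.03 (SE 0.18, adjusted p = 0.000737) and Col6a3 by 0.90 (SE 0.19, adjusted p = 0.00306). Elastin (Eln), the substrate for which Mmp12 is named, went another way. It was lower in NASH than in control, with a log2 fold change of -0.92 (SE 0.25, limma-voom adjusted p = 0.0471). It was the 1 called gene of the 18 in NASH, where 3.12% of all tested genes were called. In NASH-CH it was higher than in NASH, with 1.18 (SE 0.22, limma-voom adjusted p = 0.00359). Between NASH-CH and control it was not called, at 0.25 (SE 0.20, limma-voom adjusted p = 0.406).

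Among 8 cytokines known to induce these genes (Tgfb1, Tgfb2, Tgfb3, Tnf, Il1a, Il1b, Il6 and Osm) and 6 tested AP-1 subunits, limma-voom called 0 in each of the 3 comparisons. At an unadjusted p under 0.05 the cytokines counted 0 in NASH and 2 in NASH-CH against control and 3 between the models, and AP-1 subunits 1, 1 and 0. DESeq2 called 1 cytokine in each comparison that involves NASH-CH, and edgeR called 0 throughout. In NASH-CH the median log2 fold change was 0.62 for the cytokines and 0.51 for AP-1, and in NASH it was -0.15 and 0.73. Single genes in NASH-CH ran from -0.58 to 1.55 for the cytokines, with Il1a and Il1b negative, and from -0.14 to 1.39 for AP-1. The top value was that of Tnf, whose mean CPM was nonetheless lower than in control, 5.39 against 7.44, with 0 to 656 counts in control livers.

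**Figure D4:**
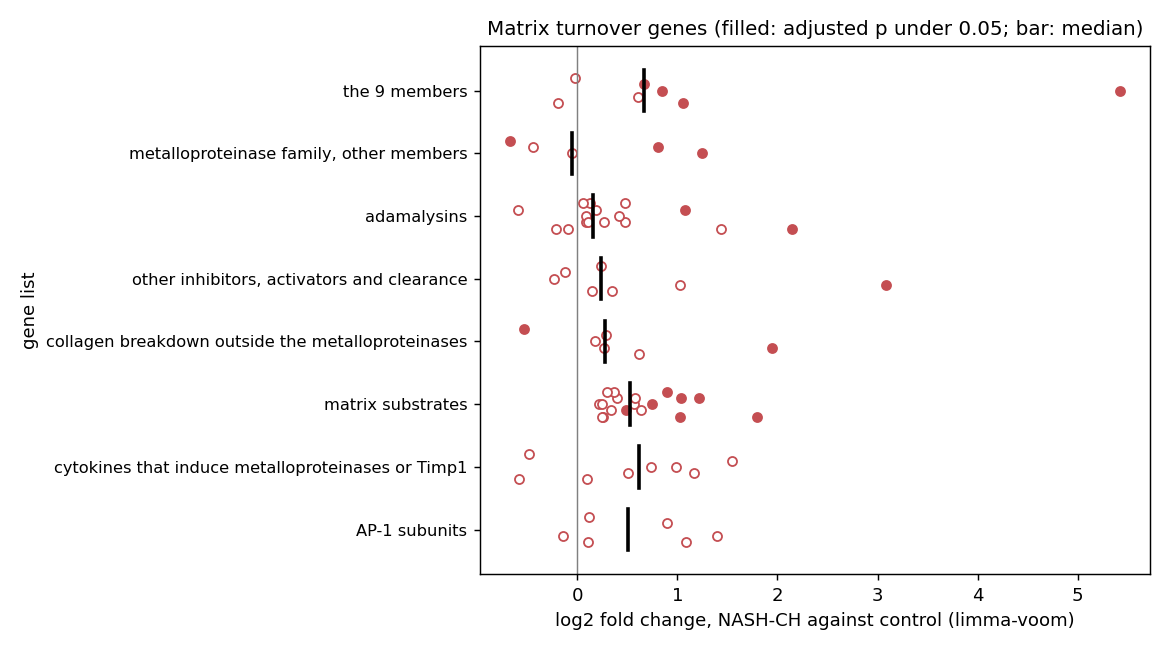
Log2 fold change in NASH-CH against control rats (horizontal axis) for each tested gene of 8 lists (vertical axis), with the 9 metalloproteinase and Timp genes in the top row, of which 7 were tested. Filled points have a limma-voom adjusted p under 0.05, and the black bar is the median of a list. The value of Mmp12, 5.42, lies to the right of every other gene shown.

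Markers of the cells known to make these proteins moved with them in part, and their part in the differences above was not tested. Beside the counts of markers below, 8.38% of all tested genes were called higher and 8.60% lower in NASH-CH against control. In NASH these shares were 1.58% and 1.54%. Macrophages are a known source of Mmp12. Of their 9 tested markers, 4 were higher and 1 lower in NASH-CH than in control, and 1 was higher in NASH. Trem2, among the 9, had 1, 15 and 264 counts in all in control, NASH and NASH-CH livers. It passed the filter only through NASH-CH, so that the filter itself favoured a higher value there. The summed level of the 10 listed was 81.9 to 129.6 CPM in control, 89.5 to 118 in NASH and 128 to 296 in NASH-CH rats, with NASH-CH rat 5 at the top. Gpnmb, the one with most counts over the 18 livers, stood at 2.62 to 9.19 CPM in control, 14.0 to 24.7 in NASH and 35.1 to 96.6 in NASH-CH rats, ranges that did not overlap. Its counts summed to 947 in control and 21150 in NASH-CH livers, so that it led the list through NASH-CH. In control livers Csf1r had more, with 5210 counts. The sum joins Gpnmb and Lyz2, whose means rose from 6.90 to 60.6 and from 11.3 to 37.6 CPM, with markers that did not rise. The marker called lower in NASH-CH was Csf1r, with a log2 fold change of -0.46 (SE 0.11, limma-voom adjusted p = 0.00635). Adgre1 (-0.33) and Cd68 (0.15) were not called, though for Adgre1 every NASH-CH rat lay below every control rat. Markers of resident macrophages were lower in NASH-CH in 5 of 5 tested genes, with Clec4f at 75.3 to 188 CPM in control and 57.5 to 82.2 in NASH-CH rats.

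Mmp2 and Timp2 are known products of stellate cells. Of 7 tested stellate cell and myofibroblast markers, 3 were higher and 1 lower in NASH-CH than in control. Tagln, Des and Pdgfra were higher, with log2 fold changes of 0.97, 0.65 and 0.54, and Lrat was lower, with -0.68. In NASH, Lrat was lower too (-0.59, SE 0.13, limma-voom adjusted p = 0.0260). The marker with most counts, Reln, stood at 24.6 to 55.7 CPM in control, 49.3 to 101.7 in NASH and 20.9 to 67.2 in NASH-CH rats and was not called. The summed level of the 8 listed was 94.97 to 133 CPM in control, 115 to 175 in NASH and 106 to 162 in NASH-CH rats. This sum joins the markers that rose with Lrat, whose mean was 36.3 CPM in control and 22.9 in NASH-CH rats. NASH-CH rat 4, the lowest of its group for Mmp2 and Timp2, was also the lowest here. NASH-CH rat 5, the highest of its group for both genes, had the next lowest sum, 114 CPM. Rat 6, with the highest sum, had 14.8 CPM of Mmp2 and 10.3 of Timp2. Hepatocyte markers were lower in NASH-CH in 3 of 8 genes, with 0 higher. Cholangiocyte markers summed to 45.6 CPM in NASH-CH rat 5 and to 4.87 to 13.2 CPM in the other 5 rats of its group, with Epcam, which had most counts, at 3.48 to 23.4 CPM in the group, and 0 of 3 tested were called by limma-voom against control, with 0 at an unadjusted p under 0.05 and 1 called by edgeR in NASH-CH.

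Vascular endothelial markers were also higher as a group in NASH-CH, as were Mmp2, Timp2 and Timp3, and their part in those differences was not tested. Of 3 tested vascular endothelial markers, 2 were higher than in control, with a median log2 fold change of 0.96, and their summed level was 12.03 to 18.2 CPM in control, 12.4 to 26.4 in NASH and 20.6 to 45.3 in NASH-CH rats. Within NASH-CH, Mmp2 followed this sum in part. NASH-CH rat 3, with the lowest sum of its group, had 15.6 CPM of Mmp2, and rat 6, with the highest, had 14.8. Rats 4, 1, 2 and 5 had sums of 23.3, 26.4, 32.1 and 32.9 CPM and 8.45, 11.8, 18.4 and 21.9 CPM of Mmp2. Vwf, the one with most counts, rose from 10.9 ± 2.18 to 24.8 ± 8.26 CPM (SD, n = 6), 1.13 on the log2 scale (SE 0.23, limma-voom adjusted p = 0.00245), and every NASH-CH rat lay above every control rat. Cd34 rose by 0.96 (SE 0.31, limma-voom adjusted p = 0.0398). In limma-voom 0 of 5 sinusoidal endothelial and 0 of 4 tested lymphocyte markers were called against control, as with edgeR and DESeq2 (0 each), while 1 sinusoidal marker in each model and 1 lymphocyte marker in NASH-CH had an unadjusted p under 0.05. Fcgr2b, the sinusoidal marker with most counts, stood at 80.5 to 108 CPM in control and 52.7 to 92.5 in NASH-CH rats, and Lck, that of lymphocytes, at 0.466 to 1.24 and 0.852 to 1.77.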

How the data were processed

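Liver RNA was sequenced in 6 control, 6 NASH and 6 NASH-CH rats. Per the labels and methods, the authors trimmed reads with Trim Galore after FastQC, mapped them by STAR to the Rnor_6.0 build and deposited gene-level expected counts from RSEM that are not normalized. Tool versions are not given in the sources used here, and the labels name no batch. The labels name another RNA kit than the methods. Expected counts were rounded, scaled by TMM (edgeR 4.0.16) and tested with limma-voom (limma 3.58.1, R 4.3.3) in 1 fit of all rats, a mean per group, for the 12904 of 32623 genes kept by filterByExpr. The 3 comparisons were adjusted by the Benjamini-Hochberg method at 0.05. Log2 CPM used a prior count of 2.

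Groups came from the labels. The 9 genes and all gene lists were chosen with earlier results of these data known. Beside the 9, the text names list genes with an adjusted p under 0.05, at most 5 per list by absolute moderated t, the most abundant marker of a list, and the 3 genes most correlated with each member. The count of the plasmin list and some of its values are not reported here. Some genes are named outside this rule, for background or after their values were seen. The numbers 1 to 6 of rats are shared between groups, but the labels do not tie them. Deviations of same-numbered rats correlated by -0.12 to 0.17, over 0.1 in 2 of 6 pairs of NASH and control rats, so the fit without a block was kept. No 2 rats of a group agreed within sampling noise (lowest chi-square per degree of freedom 29.9). Tests were tried on simulated data. Alternatives were DESeq2 1.42.0, edgeR with its quasi-likelihood F test, other scalings, filters, weights and thresholds, thinned NASH-CH counts, the replicate block and each rat left out. Promoters came from RefSeq (GRCr8), another build than that of the counts.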

Additional observations from a re-analysis of the deposited data

Results flagged for a closer look

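Each of the 9 genes was screened in each group for a rat far from the other 5, 27 screens in all, of which chance gives about 1 in 20. Of these, 1 stood out. Mmp19 in NASH-CH rat 5 was 18.4 CPM, with the other 5 rats of the group at 31.4 to 36.5, and its gap to the nearest rat was 0.782 of the range of the group on the log2 scale, above the 95% critical value of Dixon's test for 6 rats. The same rat held the highest Mmp2, Mmp12, Timp1 and Timp2 of its group, none of which passed this screen.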

How the results depend on the processing

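The count of called genes among the 9 was recomputed under 13 alternatives and 18 fits that each left out 1 rat. In NASH against control it was 1, and 0 with at least 10 counts in every sample, where Mmp12 is not tested, and 0 at a threshold of 0.01, and it ran from 0 to 1 over the fits without 1 rat. In NASH-CH against control it was 4, with 3 or 4 under all alternatives and from 3 to 4 without 1 rat. In NASH-CH against NASH it was 2, and 0 with library size only, with only the 2 groups fitted, without small non-coding RNA genes and at a threshold of 0.01, 1 with at least 10 counts in every sample, and from 0 to 3 without 1 rat. With the replicate block the counts were 1, 4 and 2, and the block changed no call of the 9 genes. Thinning NASH-CH libraries to the control depth gave 1, 4 and 3.

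With library size only, the median over all genes moved to 0.23 (NASH) and 0.27 (NASH-CH) on the log2 scale. This setting raised the share of higher calls from 50.6 to 90.8% and from 49.4 to 85.0%, and reversed 4 small differences, Mmp14 (0.086) and Timp1 (0.046) in NASH and Mmp14 (0.24) and Mmp19 (0.055) in NASH-CH. Without 1 rat, Mmp14 in NASH-CH ran from -0.10 to 0.065. Omitting the filter gave 27.8% higher calls in NASH-CH, and 19.7% against 43.2% in NASH-CH against NASH, where library size only gave 32.4%. Over the 13 alternatives, calls among all genes ran from 39 to 1509 around 403 in NASH, from 849 to 5495 around 2192 in NASH-CH and from 239 to 2649 around 542 between the models. Depth limits Mmp9 and Mmp13 and the size of the Mmp12 increase. The cause of these changes was not tested beyond the settings named.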
